A study of Homo sapiens with 6 samples.

Results

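The 8 genes described here belong to interferon signaling and response and were chosen by symbol: IFNAR1, JAK1, STAT2, IRF9, IRF3, IRF1, ISG15 and OAS3. All 8 had a row among the 13439 genes of the table, and all 8 passed the minimum mean of 1 CPM (the read count scaled to a common TMM library size). They were followed in Saos-2, an established human osteosarcoma cell line, in 3 libraries of cells given the solvent DMSO and 3 of cells given 0.2 µM AIL, both for 24 h and in medium with serum. AIL stands for ailanthone, a plant quassinoid, at the dose the labels call its IC50, and the study asked which pathways it altered in this line. The labels name biological replicates but not separate cultures, so p-values measure the spread between these libraries, which may be technical. The labels list no added interferon for either group.

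Interferons are secreted proteins that warn cells of viral infection. A type I interferon binds a receptor made of IFNAR1 and IFNAR2, which activates the kinases JAK1 and TYK2. These phosphorylate STAT proteins, among them STAT2, which joins IRF9 in the complex ISGF3, and ISGF3 binds the interferon-stimulated response element (ISRE) of target genes such as ISG15 and OAS3. IRF3 acts a step earlier, switching on interferon genes when viral nucleic acid is sensed. IRF1 is a transcription factor induced at GAS elements, the sites of STAT dimers.

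ISG15 and IRF9 rose under AIL, IRF1 and OAS3 fell, and IFNAR1, JAK1, STAT2 and IRF3 did not pass the test. A gene was called when its limma adjusted p, on log2(CPM + 1) and over all 11069 genes tested, was under 0.05. The largest ratio of means was that of ISG15, 1.40-fold, from 2.94 ± 0.313 to 4.11 ± 0.297 CPM (SD, n = 3). The 4 of 8 called compare with 54.1% of all genes tested. The 2 that rose compare with 28.2%, and the 2 that fell with 25.9%. DMSO and AIL libraries were fully apart for 4 of the 8, against 60.1% of all genes tested. The share of the 8 that was called was thus near the background of this comparison.

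The promoters of the 4 called genes are shown because genes that hold the same motif moved in opposite directions. Each line gives the 250 bases before the annotated RNA start, 5′ to 3′ on the gene's strand, from RefSeq on GRCh38.p14. Capitals mark matches to the ISRE core GAAANNGAAA, searched on both strands (TTTCNNTTTC on the other), or to the GAS motif TTCNNNGAA, which reads alike on both.
ISG15 (chr1:1013247-1013496, plus strand): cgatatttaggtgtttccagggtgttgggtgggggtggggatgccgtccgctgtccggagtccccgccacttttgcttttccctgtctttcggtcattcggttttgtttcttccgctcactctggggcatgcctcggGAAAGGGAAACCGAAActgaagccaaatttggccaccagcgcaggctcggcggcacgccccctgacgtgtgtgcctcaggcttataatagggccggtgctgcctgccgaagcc
OAS3 (chr12:112938224-112938473, plus strand): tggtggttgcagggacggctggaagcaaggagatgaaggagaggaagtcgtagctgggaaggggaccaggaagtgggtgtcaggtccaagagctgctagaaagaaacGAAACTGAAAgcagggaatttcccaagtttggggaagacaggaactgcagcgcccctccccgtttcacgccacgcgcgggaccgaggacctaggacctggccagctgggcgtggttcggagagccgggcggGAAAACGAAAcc
IRF9 (chr14:24161015-24161264, plus strand): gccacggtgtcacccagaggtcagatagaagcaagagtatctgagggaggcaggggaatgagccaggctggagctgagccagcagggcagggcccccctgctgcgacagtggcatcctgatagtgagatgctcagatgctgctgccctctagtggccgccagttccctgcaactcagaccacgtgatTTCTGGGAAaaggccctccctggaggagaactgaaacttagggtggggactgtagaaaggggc
IRF1 (chr5:132490774-132491023, minus strand): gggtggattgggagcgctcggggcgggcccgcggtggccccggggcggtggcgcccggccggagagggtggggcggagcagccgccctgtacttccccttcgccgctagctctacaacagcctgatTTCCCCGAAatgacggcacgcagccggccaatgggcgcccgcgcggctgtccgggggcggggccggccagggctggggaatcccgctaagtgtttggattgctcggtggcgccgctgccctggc
In ISG15, which rose, 2 ISRE core matches that overlap each other begin 113 and 107 bases before the start. In OAS3, which fell, 2 matches begin 143 and 12 bases before it. The GAS match of IRF9, which rose, begins 63 bases before its start, and that of IRF1, which fell, 124 bases before. The windows searched were 300 bases long, with 50 bases after the start, and covered 7 of the 8 genes (3 windows for JAK1 and 2 for IFNAR1). The windows of JAK1, IFNAR1 and STAT2 held no match to either motif. Of 35116 such windows in the table, 3.57% held the ISRE core and 7.66% the GAS motif. A match is a string of letters, and binding was not measured.

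**Figure D1:**
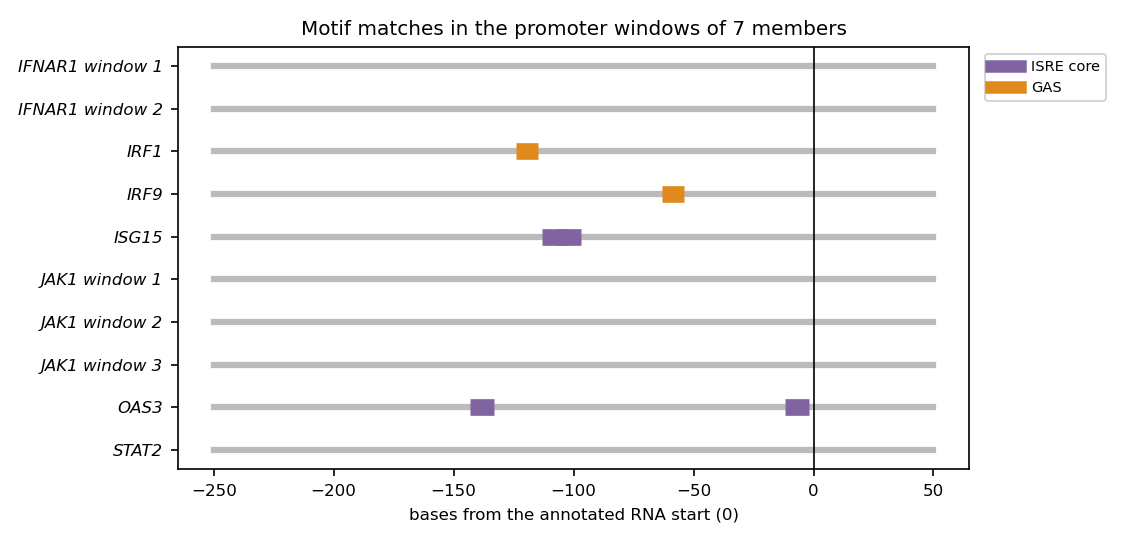
Matches to the ISRE core (purple) and the GAS motif (orange) in the promoter windows of 7 genes, each from 250 bases before to 50 bases after the annotated RNA start at 0 on the x axis. ISG15 and OAS3 hold 2 ISRE core matches each, IRF1 and IRF9 hold 1 GAS match each, and the windows of IFNAR1, JAK1 and STAT2 hold none.

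The TMM-scaled libraries held 32540000 to 38050000 reads, as read from the spacing of low values, so 1 read stands for 0.0263 to 0.0307 CPM. Of 13 mitochondrially encoded transcripts, taken as a mark of RNA quality, 10 were called lower under AIL (76.9%, against 25.9% of all genes tested). None was called higher. Together the 13 summed to 4205.4 to 4373.7 CPM under DMSO and 3600.5 to 3726.0 under AIL. Of 10 osteoblast markers 4 had a value. Among them, RUNX2 (4.66 ± 0.295 CPM under DMSO) was present and SPP1 (0.223 ± 0.0513) and BGLAP (0.0100 ± 0.0173) were near 0. The markers with no value were not analysed here. Of 7 leukocyte markers 2 had a value, summing to 0.790 to 0.880 CPM under DMSO and 2.54 to 3.29 under AIL, nearly all from CD68, with ITGAM near 0. The 2 of 4 endothelial markers with a value summed to 0.03 to 0.15 and 0.14 to 0.24 CPM, and the 2 of 5 epithelial markers, KRT8 and KRT18, to 823.6 to 846.7 and 921.6 to 977.8. The part of these values in the differences described next was not tested.

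IFNAR1, the receptor chain at the top of the pathway, was measured at 61.33, 60.63 and 62.29 CPM in DMSO replicates 1, 2 and 3 and at 59.85, 59.63 and 63.02 CPM in the AIL replicates. The AIL values lay on both sides of the DMSO range. The log2 difference (AIL minus DMSO throughout) was -0.01, with a 95% interval of -0.09 to 0.06 and a limma adjusted p of 0.751. In these bulk libraries, fewer cells with a transcript and less transcript per cell cannot be told apart.

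JAK1, a kinase used by the receptors of all interferon types, stood at 322.7, 330.14 and 321.73 CPM under DMSO and 325.51, 314.06 and 317.66 CPM under AIL. The groups overlapped through AIL replicate 1. The log2 difference was -0.03 (95% interval -0.08 to 0.03, limma adjusted p = 0.402), the narrowest interval of the 8 genes, with 10502 to 12385 reads in a library.

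STAT2, the STAT particular to ISGF3, stood at 28.21, 29.18 and 28.3 CPM under DMSO and 29.17, 29.64 and 30.66 CPM under AIL. AIL replicate 1 lay just under DMSO replicate 2, so the groups met at that point. The log2 difference was 0.06 (95% interval -0.03 to 0.15, limma adjusted p = 0.240).

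IRF9, the DNA-binding subunit of the same complex, rose. It was measured at 9.16, 9.32 and 9.15 CPM under DMSO and at 10.78, 12.33 and 11.11 CPM under AIL. All 3 AIL libraries were above all 3 DMSO libraries, and AIL replicate 2 was the highest. The mean went from 9.21 ± 0.0954 to 11.4 ± 0.816 CPM (SD, n = 3), up 23.9%, with a log2 difference of 0.28, an SE of 0.0637 and a limma adjusted p of 0.00129. The coefficient of variation was 1.04% under DMSO and 7.16% under AIL, where read counting alone gives 5.67% and 4.89%. Of the distinct 50-base words of IRF9 transcripts, 43.8% also occur in another annotated gene, mostly AL136295.5, so its value is uncertain where reads could be split.

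IRF3, the factor activated when viral nucleic acid is sensed, was measured at 42.74, 42.44 and 40.85 CPM under DMSO and at 44.79, 42.49 and 37.54 CPM under AIL. AIL replicate 1 was the highest of the 6 libraries and AIL replicate 3 the lowest. The coefficient of variation was 2.42% under DMSO and 8.90% under AIL, against 2.65% and 2.56% from counting alone. The log2 difference was -0.02 (95% interval -0.13 to 0.09, limma adjusted p = 0.798), and it turned to 0.05 (limma adjusted p = 0.263) without AIL replicate 3. Of its 50-base words, 15.1% occur in other genes, chiefly BCL2L12.

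IRF1, a transcription factor of interferon and inflammatory target genes, fell. The values were 23.41, 22.73 and 22.44 CPM under DMSO and 20.68, 20.24 and 19.13 CPM under AIL, with all AIL libraries below all DMSO libraries. The mean went from 22.9 ± 0.498 to 20.0 ± 0.799 CPM (SD, n = 3), and fell by 12.4%, with a log2 difference of -0.18, an SE of 0.0484 and a limma adjusted p of 0.00391. In IRF1, 22.0% of the 50-base words occur in another gene, mostly C5orf56.

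ISG15, a ubiquitin-like protein that is attached to other proteins after interferon, rose from a low level. It was measured at 2.73, 3.3 and 2.79 CPM under DMSO and at 4.44, 3.87 and 4.01 CPM under AIL, and the groups were apart. These values stand for 89, 109 and 100 reads under DMSO and 169, 140 and 144 reads under AIL. The mean was 39.7% higher under AIL, with a log2 difference of 0.38, an SE of 0.0877 and a limma adjusted p of 0.00156. The coefficients of variation, 10.7% under DMSO and 7.23% under AIL, were close to the 10.0% and 8.14% of counting alone. Because the gene is low, the log2 difference moved with the pseudocount, to 0.20 at 5 and 0.47 at 0.1 CPM, and the call was kept at both.

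OAS3, which makes the 2′-5′ oligoadenylates of the antiviral response, fell. It stood at 41.57, 41.35 and 41.08 CPM under DMSO and at 37.4, 36.44 and 37.2 CPM under AIL. All AIL libraries lay below all DMSO libraries. The mean went from 41.3 ± 0.245 to 37.0 ± 0.506 CPM (SD, n = 3), and fell by 10.5%, with a log2 difference of -0.16, an SE of 0.0367 and a limma adjusted p of 0.00171.

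**Figure D2:**
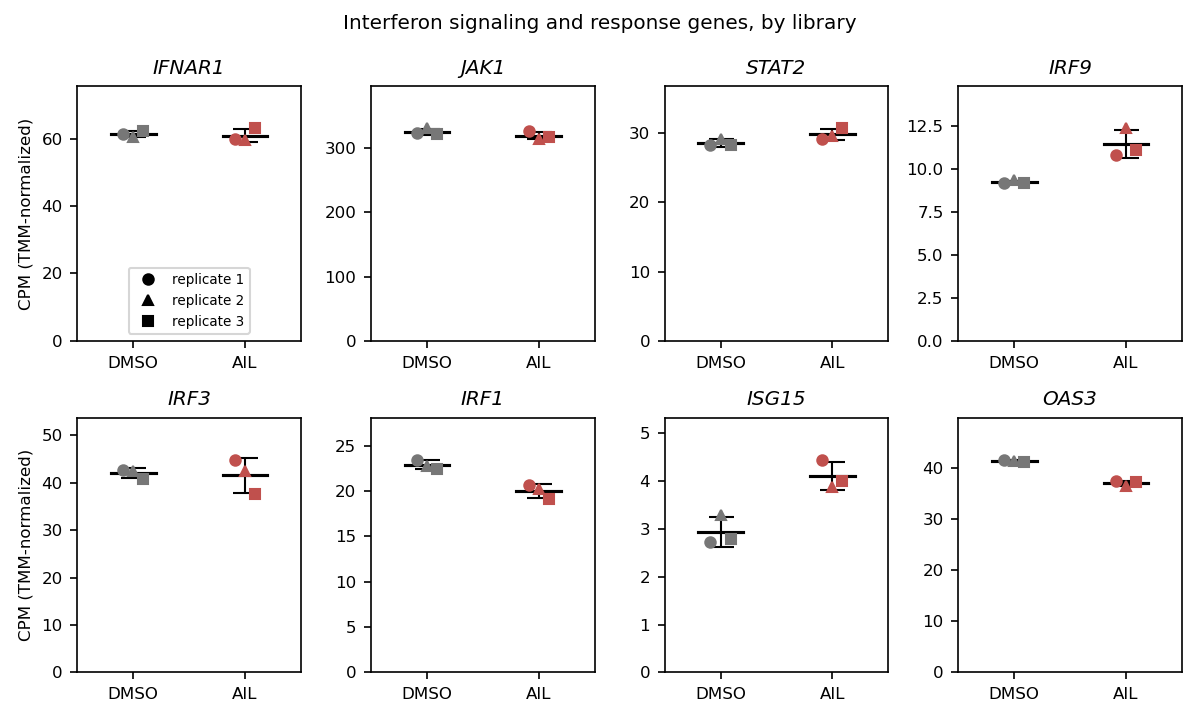
CPM of the 8 genes (y axes from 0) in the DMSO and AIL libraries (x axis), with a symbol for each replicate, the mean as a bar and the SD as an error bar, n = 3. The groups are apart for IRF9, IRF1, ISG15 and OAS3 and overlap for IFNAR1, JAK1, STAT2 and IRF3.

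**Figure D3:**
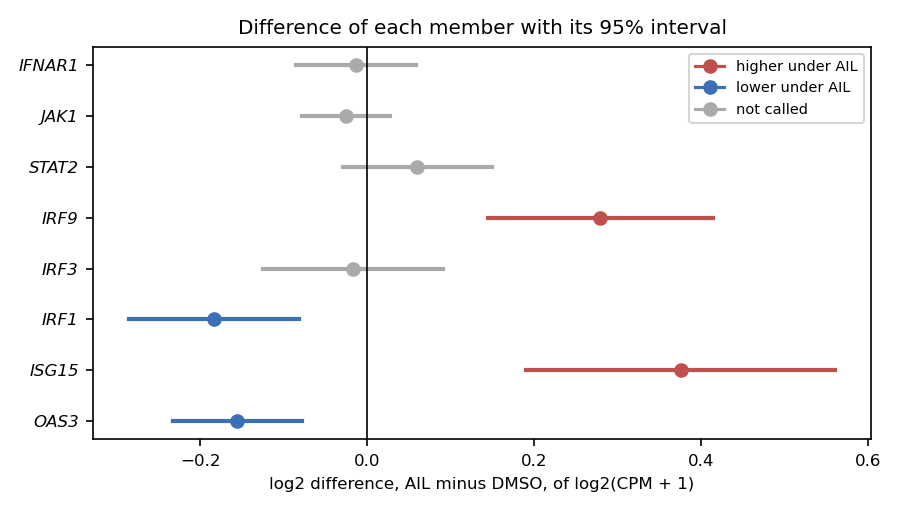
Difference of log2(CPM + 1) between AIL and DMSO (x axis) for each gene, with its 95% interval from limma. The intervals of ISG15 and IRF9 lie above 0, those of IRF1 and OAS3 below 0, and the other 4 include 0.

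The effectors ISG15 and OAS3 were set against each other inside each library, where the library's scaling cancels. The ratio of ISG15 to OAS3 CPM was 0.0657, 0.0798 and 0.0679 in the DMSO libraries and 0.119, 0.106 and 0.108 in the AIL libraries. Every AIL ratio was above every DMSO ratio, which follows from the rise of ISG15 and the fall of OAS3, each with its groups apart. The mean log2 ratio differed by 0.64, or 1.56-fold. For the ISGF3 subunits, the ratio of IRF9 to STAT2 was 0.325, 0.319 and 0.323 under DMSO and 0.370, 0.416 and 0.362 under AIL, a difference of 0.24 on the log2 scale. Both exact two-sided permutation tests gave p = 0.1 (0.1 after Benjamini-Hochberg adjustment over the 2 ratios), the smallest p that 3 libraries against 3 allow, so neither could pass the threshold.

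**Figure D4:**
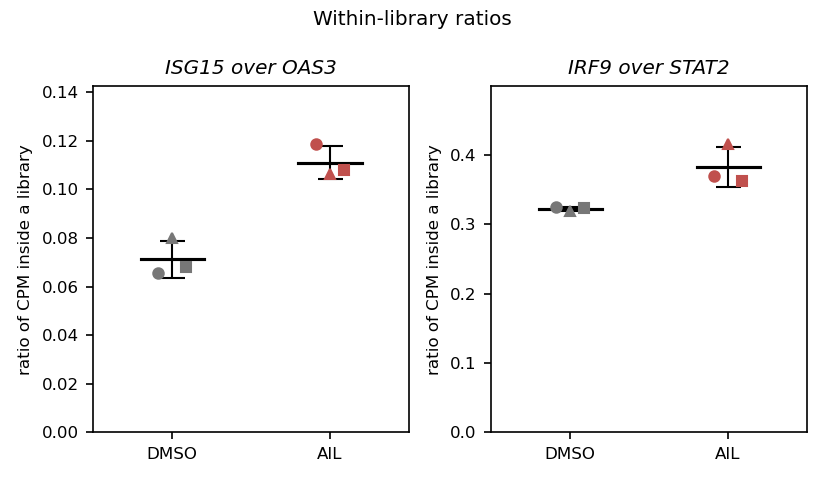
Ratio of CPM inside each library (y axes from 0) for ISG15 over OAS3 and for IRF9 over STAT2, in the DMSO and AIL libraries (x axis), with mean and SD, n = 3. In both panels every AIL ratio lies above every DMSO ratio, which for ISG15 over OAS3 follows from the separate values of each gene.

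Levels of different genes were compared as CPM per kilobase of the longest coding length in GENCODE 29. Under DMSO, JAK1 led with 93.8 ± 1.33 CPM per kilobase (SD, n = 3), followed by IFNAR1 (36.8 ± 0.499), IRF3 (31.0 ± 0.749) and IRF1 (23.4 ± 0.511). OAS3 (12.7 ± 0.0753), STAT2 (11.2 ± 0.210), IRF9 (7.81 ± 0.0809) and ISG15 (5.94 ± 0.633 CPM per kilobase) came after them, and no neighbours in this order overlapped. Under AIL, STAT2 (11.7 ± 0.298) and OAS3 (11.4 ± 0.155) overlapped and changed places, and the order of the other genes stayed. Reads also fall on untranslated parts of a transcript, so these levels are approximate.

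The gene nearest to each in profile had the smallest root mean square difference of log2(CPM + 1) over the 6 samples, after each gene's own mean was taken off, among genes of at least 5 CPM. These were TEAD1 for IFNAR1 (0.00612), GOPC for JAK1 (0.0111), MARCH8 for STAT2 (0.0112) and MAFG for IRF3 (0.00769). For the called genes they were RRP12 for IRF9 (0.0263), DDX39A for IRF1 (0.0100), MSRB1 for ISG15 (0.0266) and IST1 for OAS3 (0.00675). None of the 8 nearest genes is on the interferon lists used here, which hold 104 of the 13439 genes, so few candidates were on them. MAFG was at 34.14, 33.84 and 32.99 CPM under DMSO and 35.69, 34.17 and 30.24 CPM under AIL. Its highest value was in AIL replicate 1 and its lowest in AIL replicate 3, as for IRF3, and it was picked for that likeness.

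The rest of the pathway was taken from lists by role. Of 143 listed symbols, older names included, 104 had a value and 87 passed the minimum, of which 22 rose and 16 fell. That is 25.3% higher and 18.4% lower, against 28.2% and 25.9% of all genes tested. The counts by role below stand against the same 28.2% and 25.9%. The median log2 difference was -0.00357 on the lists and 0.00830 over all genes. Without the 8 genes described above, 20 of 79 rose and 14 fell.

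Of 24 listed symbols of the interferon genes themselves, older names included, IFNE alone had a value, with 6 to 16 reads in a library. The ligands with no value were not analysed here. Of 5 tested receptor genes 1 fell and none rose. IFNGR2, the signal-transducing chain of the interferon-gamma receptor, stood at 83.67, 85.84 and 80.84 CPM under DMSO and 63, 59.05 and 60.37 CPM under AIL. It fell by 27.1%, with a log2 difference of -0.45 (SE 0.0348, limma adjusted p = 1.19e-08), the lowest on the interferon lists. Its partner chain IFNGR1 stood at 28.3 ± 1.12 and 28.6 ± 0.835 CPM (95% interval of the log2 difference -0.08 to 0.11). IFNAR2, the partner of IFNAR1, stood at 27.7 ± 0.562 and 26.6 ± 1.60 CPM, and IL10RB, a chain of the interferon-lambda receptor, at 29.2 ± 2.06 and 31.6 ± 1.28 CPM. The limma adjusted p of IL10RB was 0.0729, and 0.0137 without DMSO replicate 2. IL10RB was not called in the other alternatives, with limma adjusted p-values of up to 0.274. Of the 50-base words of IFNAR2 and IL10RB, 77.5% and 36.3% occur in other genes. IFNLR1 was under the minimum, with 25 to 37 reads in a library.

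Of 6 tested kinases and STATs, 2 fell and none rose. STAT3, which carries signals of many cytokines, fell from 128.4 ± 1.93 to 114.8 ± 1.17 CPM, a log2 difference of -0.16 (limma adjusted p = 9.20e-05). TYK2, the kinase bound to IFNAR1, stood at 71.84, 69.26 and 67.87 CPM under DMSO and 66.36, 69.81 and 57.34 CPM under AIL, with AIL replicate 3 the lowest. Its limma adjusted p was 0.0750, but 0.0183 with the replicate block, 0.0447 with median-of-ratios scaling and 0.0130 without AIL replicate 2. TYK2 was not called in the other alternatives, with limma adjusted p-values of up to 0.443.

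In the IRF family, IRF9 and IRF7 rose and IRF1 fell among 6 tested genes. IRF7, an amplifier of type I interferon genes, went from 7.89 ± 0.846 to 9.14 ± 0.688 CPM with overlapping groups (log2 difference 0.19, limma adjusted p = 0.0459). Its call was lost in 7 of 14 alternatives: with no minimum (limma adjusted p = 0.0878), quantile normalization (0.104) or no intensity trend (0.0745), without DMSO replicate 1 or 3 (0.0789 and 0.226) and without AIL replicate 1 or 2 (0.144 and 0.148). Without DMSO replicate 3 the difference was 0.12.

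Upstream of IRF3, 2 of 9 tested sensing genes fell and none rose. TRAF3, an adaptor of viral RNA sensing, fell from 66.6 ± 1.06 to 60.7 ± 2.03 CPM, a log2 difference of -0.13 (limma adjusted p = 0.00333). TBK1, the kinase that phosphorylates IRF3, fell from 72.0 ± 1.68 to 66.4 ± 0.257 CPM, a log2 difference of -0.11 (0.00595). The RNA sensors DDX58 (42.8 ± 0.790 and 42.3 ± 0.688 CPM) and IFIH1 (6.44 ± 0.321 and 6.11 ± 0.599 CPM) were not called, with 95% intervals of -0.09 to 0.06 and -0.23 to 0.09. Their adaptor MAVS, at 50.1 ± 1.14 and 53.3 ± 2.30 CPM, had a limma adjusted p of 0.0646. It was 0.0244 with the replicate block and 0.00570 without AIL replicate 3. MAVS was not called in the other alternatives, with limma adjusted p-values of up to 0.257.

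Of 11 tested negative regulators, 5 rose (45.5%) and none fell, against 28.2% higher and 25.9% lower of all genes tested. With quantile normalization or the replicate block, 2 of the list were called lower. USP18, also on this list, was lower in every AIL library than in every DMSO library but was not called. PIAS4, a SUMO ligase that restrains STAT proteins, stood at 17.42, 17.65 and 15.96 CPM under DMSO and 22.1, 21.98 and 21.5 CPM under AIL, 28.5% higher (log2 difference 0.35, limma adjusted p = 2.39e-05). PTPN11, which encodes the phosphatase SHP2, rose by 0.18 on the log2 scale from 454.8 ± 9.48 CPM (limma adjusted p = 1.63e-05). SOCS3, an inhibitor of JAK kinases, rose by 0.17 from 30.8 ± 0.404 CPM (0.00195), and PTPN2, a phosphatase of JAK and STAT proteins, by 0.13 from 58.3 ± 0.440 CPM (0.00465). IRF2BP2, a corepressor that binds IRF2, rose by 0.11 (limma adjusted p = 0.0166), a call lost without DMSO replicate 2 (0.0646) or AIL replicate 1 (0.0573). IRF2BP1, chosen after its values were seen, had a log2 difference of -0.15 and a limma adjusted p of 0.0871. It was 0.0208 with the replicate block, 0.0253 with quantile normalization and 0.00929 without DMSO replicate 3. IRF2BP1 was not called in the other alternatives, with limma adjusted p-values of up to 0.287.

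ISG15 is joined to proteins by the enzymes UBA7, UBE2L6 and HERC5 and removed by USP18. Of the 5 tested genes on that list, ISG15 and HERC6 rose and none fell. HERC6, a relative of HERC5, stood at 7.61 ± 0.367 CPM under DMSO and 9.71 ± 0.248 CPM under AIL, a log2 difference of 0.31 (limma adjusted p = 5.06e-04). UBE2L6 stood at 7.03 ± 0.320 and 6.57 ± 0.561 CPM and was not called (95% interval of the log2 difference -0.24 to 0.07). UBA7, the first enzyme, was under the minimum, with 8 to 22 reads in a library. HERC5 was at 35.86, 36.08 and 37 CPM under DMSO and 35.32, 32.01 and 34.31 CPM under AIL, and USP18 at 8.45, 8.26 and 8.4 and 8.07, 6.14 and 7.77 CPM. In both, every AIL value was below every DMSO value, yet the limma adjusted p-values were 0.0632 and 0.0761. They were 0.0392 and 0.0472 with the replicate block, 0.0374 and 0.0263 with quantile normalization, 0.0365 and 0.0285 without AIL replicate 1, and 0.0416 and 0.0288 without AIL replicate 3. HERC5 was also called with median-of-ratios scaling (0.0402). In the remaining alternatives HERC5 and USP18 were not called, with limma adjusted p-values of up to 0.270 and 0.428. Of the 50-base words of USP18, 23.4% occur in other genes, chiefly USP41.

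OAS3 was the one OAS gene above the minimum. OAS1 had 3 to 7 reads in a library, OAS2 had 1 to 2 and OASL 1 to 5, and these were not tested at this depth.

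Of 29 tested other interferon-stimulated genes, 8 rose and 5 fell, and the median log2 difference of the 29 was -0.00146. The 4 with the smallest adjusted p all rose. TRIM25, a ubiquitin ligase of RNA sensing, stood at 57.8, 57.72 and 57.71 CPM under DMSO and 70.86, 73.54 and 70.45 CPM under AIL (log2 difference 0.31, limma adjusted p = 4.47e-07). IFITM2, a membrane protein that blocks viral entry, rose by 0.31 from 61.9 ± 3.38 CPM (2.22e-06), though 34.3% of its 50-base words occur in other genes. IFIT5, an RNA-binding protein, rose by 0.36 from 28.0 ± 1.12 CPM (4.74e-06), and ZC3HAV1, the zinc-finger antiviral protein, by 0.19 from 135.8 ± 1.93 CPM (2.10e-05). Among genes known for large responses to interferon, MX1 had 10 to 19 reads in a library, IFI27 2 to 6 and IFI44L 1 to 5, all under the minimum and chosen after their values were seen. IFIT1 and IFIT2, chosen in the same way, were at 1.59 ± 0.235 and 1.39 ± 0.146 CPM under DMSO and 2.04 ± 0.230 and 1.77 ± 0.0693 CPM under AIL, with the groups apart. Their limma adjusted p-values were 0.0651 and 0.0744, and 0.0443 and 0.0268 with no minimum and 0.0394 and 0.00961 with no intensity trend. That of IFIT1 was 0.0474 with the replicate block and 0.0420 without DMSO replicate 2. In the remaining alternatives that tested them, IFIT1 and IFIT2 were not called, with limma adjusted p-values of up to 0.237 and 0.221.

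In antigen presentation, a set of genes that interferon-gamma induces, 5 of 15 tested genes rose and 4 fell. The genes of the peptide transporter's paired subunits went in opposite directions. TAP1 was at 27.38, 26.85 and 25.23 CPM under DMSO and 32.51, 30.08 and 29.94 CPM under AIL (log2 difference 0.21, limma adjusted p = 0.00110). TAP2 was at 33.65, 32.18 and 29.94 CPM under DMSO and 26.47, 26.04 and 24 CPM under AIL (log2 difference -0.31, limma adjusted p = 5.85e-05), and 31.3% of its 50-base words occur in other genes. HLA-E, a non-classical class I molecule, rose by 0.25 from 61.3 ± 1.37 CPM (1.22e-05). ERAP1, which trims peptides for class I, was at 89.8 ± 3.05 and 78.6 ± 1.28 CPM, a log2 difference of -0.19 (8.97e-05).

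**Figure D5:**
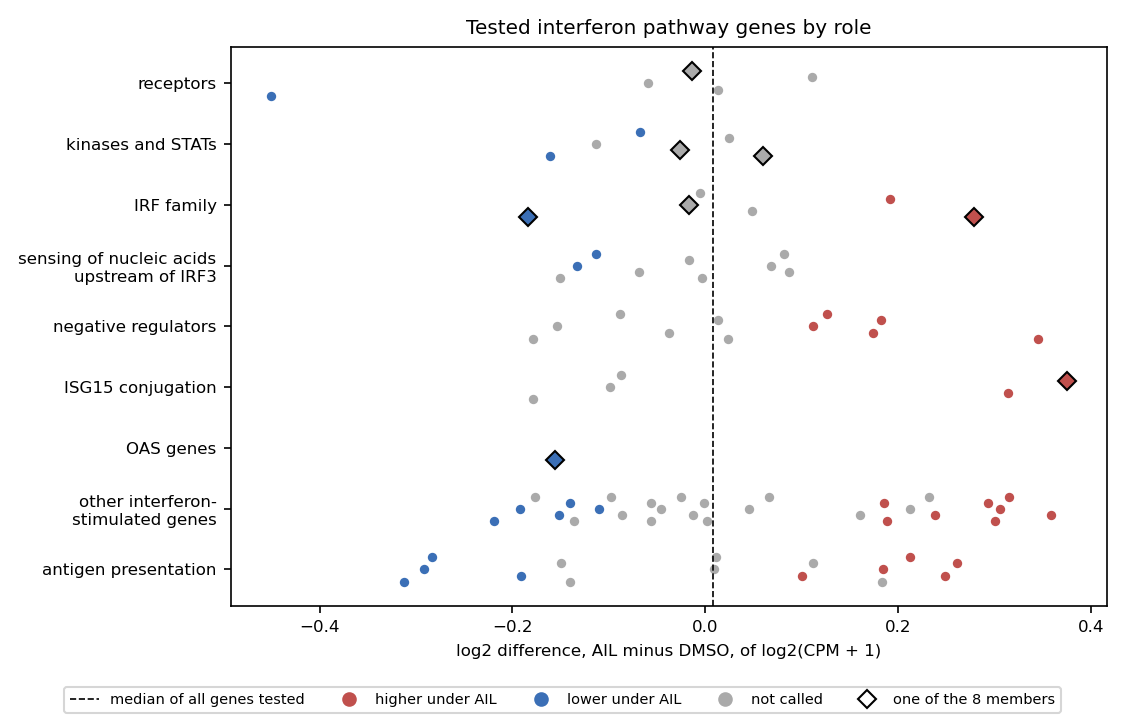
Difference of log2(CPM + 1) between AIL and DMSO (x axis) for tested interferon pathway genes by role (y axis; of the OAS list, OAS3 is drawn; a gene on 2 lists is drawn in both, and vertical offsets inside a role carry no value). Red and blue points were called higher and lower, grey points were not called, diamonds are the 8 genes and the dashed line is the median of all genes tested, 0.00830.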

How the data were processed

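The authors deposited TMM-normalized read counts scaled to library size (CPM), per the file's name, for 6 RNA-seq libraries. The submitters' processing notes name RSEM and edgeR 3.8.5 without a role. The aligner, genome build, annotation and strand setting were not given in the sources used here, so reads of overlapping, antisense or near-identical genes may be counted for either. Low values are steps of single reads. Of values up to 2000 reads, 52.4 to 65.1% came within 0.1 of a whole read (95% was needed), so no count test was run. Within 0.2 of a whole read the share was 99.95 to 99.98%. Rounding of the deposited values can by itself exceed 0.1 read.

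Genes whose mean reached 1 CPM were tested with limma 3.58.1 (R 4.3.3) after taking log2(CPM + 1), using empirical Bayes moderation with an intensity trend and no covariates, two-sided. P-values were adjusted by Benjamini-Hochberg over all genes tested, and calls were made under 0.05. The members, lists and tests were chosen with earlier results of these data known. Named are the 8 members, the called genes of each list (in lists with over 8 calls, the 4 of smallest adjusted p) and uncalled genes of the signaling, sensing, ISG15 and OAS lists by level. Some listed genes that count in the totals are not reported here by name. Shared 50-base words (both strands) and coding lengths came from GENCODE 29.

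Same-numbered DMSO and AIL samples deviated together from their group means, with correlations of 0.159, 0.133 and 0.129, each over 0.1. The other DMSO and AIL pairs gave -0.179 to 0.0210. A pairing was thus read from the data and not from the labels, and correlations this small do not establish it. The replicate number entered as a block in an alternative.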

Additional observations from a re-analysis of the deposited data

How the results depend on the processing

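ISG15, IRF9, IRF1 and OAS3 kept their calls and directions in every alternative that tested them, with limma adjusted p-values of at most 0.0115, 0.0119, 0.0217 and 0.00924. A minimum mean of 5 CPM left ISG15 untested and 3 of the 8 genes called. Of 38 called pathway genes, 32 were called in all alternatives that tested them, and 6, among them IRF7, IRF2BP2, PLSCR1 and HLA-F, were lost in some. Among uncalled genes, the sign turned for IFNAR1 without AIL replicate 2, for IRF3 without AIL replicate 3 and for IFNGR1 without DMSO replicate 1 or AIL replicate 1. With each replicate left out in turn, their log2 differences ranged over -0.0392 to 4.43e-05, -0.0709 to 0.0535 and -0.0153 to 0.0397. IFNGR1 was also at -0.00870 with quantile normalization.

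Leaving out each replicate gave 2709 to 3270 genes higher and 2527 to 2924 lower (3122 and 2869 with all), and 19 to 24 pathway genes higher and 14 to 19 lower. The log2 ratio difference ranged over 0.59 to 0.73 for ISG15 over OAS3 and 0.18 to 0.28 for IRF9 over STAT2. With the replicate block, 3347 genes were higher and 3121 lower, and 24 pathway genes were higher and 22 lower. Beyond the genes named with it in the text, the block changed no call of a gene named there. Count tests were not run, since the set share of values within 0.1 of a whole read was not reached. Depth limits ISG15 and the OAS genes other than OAS3.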
